A study of Mus musculus with 18 samples.

Results

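Auts2, Negr1, Ank3, Cttnbp2, Rabgap1l and Itgb5 are 6 genes that the study matched to major depressive disorder risk genes in the DisGeNET database. They were followed through every cell type in 2 brain regions, hippocampus (Hip) and prefrontal cortex (PFC), from mice raised with and without gut microbes. They are 6 of the 30905 genes in the deposited matrices, were matched by gene symbol, and held 5684513 of the 823040564 unique molecular identifiers (UMIs, 1 per captured RNA molecule) in the nuclei assigned to a cell type, which is 0.691%. The study picked these genes on these same libraries, from microglial genes that differed in germ-free mice and moved back on colonization and that overlapped a macaque microglial list and depression risk genes. Their microglial values are therefore given as a description with no test. The other cell types were tested, in nuclei that did not enter that choice but that came from the same libraries. For every member but Itgb5, the microglial level did not stand above that of neuronal RNA, as described below. How far RNA of other cells entered the choice was not tested, so these tests cannot be taken as independent of it.

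The 18 libraries are droplet-based single-nucleus RNA-seq of Hip and PFC from the same 9 mice, all 8 weeks old and of the outbred Kun Ming stock. Germ-free (GF) mice (numbers 5, 6 and 7) were kept in isolators without microbes, specific pathogen-free (SPF) mice (30, 31 and 32) carried a normal microbiota, and colonized germ-free (CGF) mice (17, 18 and 19) were GF mice co-housed with SPF mice for the last 4 weeks. Each group had 3 mice, each mouse gave 1 library per region, and the mouse is the replicate.

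Background helps to read these genes. AUTS2 is a nuclear protein of a Polycomb repressive complex 1 variant and also acts on the cytoskeleton, and its gene is disrupted in a neurodevelopmental syndrome. NEGR1 is a membrane-anchored adhesion molecule of the IgLON family, and ANK3 (ankyrin-G) gathers sodium channels at the axon initial segment and at nodes of Ranvier. CTTNBP2 binds cortactin in dendritic spines, RABGAP1L carries a TBC domain of the kind that turns off Rab GTPases in membrane traffic, and ITGB5 is integrin beta 5, which pairs with the alpha v subunit and is a characteristic microglial gene in brain.

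All 6 genes are long. On GRCm38 (GENCODE vM21), Auts2 spans chr5:131437333-132543344 on the minus strand (1106 kb) and Negr1 spans chr3:156561794-157316445 on the plus strand (755 kb). Ank3 spans chr10:69398773-70027438 on the plus strand (629 kb) and Rabgap1l spans chr1:160219174-160793211 on the minus strand (574 kb). Cttnbp2 lies at chr6:18366478-18514843 on the minus strand (148 kb) and Itgb5 at chr16:33829665-33949338 on the plus strand (120 kb). Their spans lie at percentiles 92.9 to 99.9 of all genes with a known span, whose median is 12.7 kb, and exons make up 1.39% to 5.95% of them. Nuclear RNA holds unspliced transcripts, and the sources used here do not say if intronic reads were counted, so gene span is carried as a check through the results.

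RefSeq's promoter table (GRCm38.p6) held 4 of the 6 genes, and in 2 of them, Cttnbp2 and Itgb5, the 250 bases before the start overlapped no annotated exon. These windows are shown for that reason alone, and the cell types that hold the genes played no part. Capitals mark GC boxes (GGGCGG, or CCGCCC on the other strand), which 32.7% of 32851 promoter windows of the same length held. The window before Cttnbp2 (chr6:18514870-18515119, minus strand, 2 boxes and 23 CG dinucleotides) and that before Itgb5 (chr16:33829415-33829664, plus strand, 3 boxes and 18 CG dinucleotides) both had more CG dinucleotides than the median window, which had 6.
Cttnbp2: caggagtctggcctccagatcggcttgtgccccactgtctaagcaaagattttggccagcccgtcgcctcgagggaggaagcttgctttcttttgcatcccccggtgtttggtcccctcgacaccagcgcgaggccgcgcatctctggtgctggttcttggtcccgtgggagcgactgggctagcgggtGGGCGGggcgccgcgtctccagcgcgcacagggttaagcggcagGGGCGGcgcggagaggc
Itgb5: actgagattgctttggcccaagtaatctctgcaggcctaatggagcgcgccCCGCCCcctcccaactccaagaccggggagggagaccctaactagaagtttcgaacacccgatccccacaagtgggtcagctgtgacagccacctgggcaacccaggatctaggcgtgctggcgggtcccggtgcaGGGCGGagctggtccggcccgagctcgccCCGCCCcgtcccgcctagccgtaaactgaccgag
A match to these letters is a description of the sequence and not a shown binding site.

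After the study's own filter (at least 200 genes and at most 10% mitochondrial UMIs), 71398 Hip and 66602 PFC nuclei remained, of which 67845 and 62017 were assigned a type from marker genes. Hip libraries held 49067853 to 63217083 UMIs, with the GF ones at up to 56240654. In PFC, GF libraries held 59126586 to 71463928 UMIs, SPF libraries 20336250 to 26949210 and CGF libraries 22213863 to 26151503, so depth and the GF group cannot be told apart in PFC. Median UMIs per nucleus differed in Hip as well, at 4593 to 5809.5 in GF against 6132 to 7054 in SPF libraries. Mitochondrial UMIs moved with the groups too, at 0.645% to 1.10% in GF against 0.128% to 0.471% in SPF Hip, and at 0.359% to 0.594% in GF against 1.66% to 3.22% in SPF PFC. Pairs of libraries shared 6 to 29 cell barcodes. The interneurons of CGF mouse 17 in PFC stood apart, as 70.2% of its 1135 interneurons lay outside the 4 interneuron subtypes. All 1135 together held Auts2 at 4272 CPM (counts per 1000000 UMIs) against 2083 and 1751 in the other CGF mice. Without normalization between libraries, its interneurons outside the subtypes held 6050 CPM and those inside them 2283 CPM. Without that mouse the fold change of Auts2 between GF and CGF interneurons in PFC went from -0.59 to -0.10 on the log2 scale, and neither value passed the test (adjusted p = 0.059 and 0.56, edgeR).

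Levels are CPM on library sizes normalized within a region and cell type, so they compare mice, and between genes they are compared only per kilobase of span. Between types they rank shares of the UMIs of a type, and not amounts per nucleus. Types differed in UMIs per nucleus, with medians of 9712 in excitatory neurons and 2395 in oligodendrocytes of SPF mouse 30 in Hip. In SPF mice Auts2 had its highest mean in excitatory neurons in Hip (3253 ± 219 CPM, SD, n = 3), with fibroblasts (3035 CPM), mural cells (2510 CPM) and interneurons (2354 CPM) next and each overlapping its neighbour in this order. In PFC the order differed, and fibroblasts stood first at 3522 ± 515 CPM, above interneurons (2113 CPM) and excitatory neurons (1887 CPM) with no overlap, although Leiden clustering put mural cells first. Vascular types depended on the method, as 0 of 871 Hip fibroblasts, 0 of 229 Hip mural cells and 737 of 1395 PFC fibroblasts had the same type in Leiden clusters. Excitatory neurons were the most numerous nuclei (41264 of 67845 in Hip and 38881 of 62017 in PFC). They gave 84.7% of all Auts2 UMIs in Hip and 79.0% in PFC. Within the hippocampus dentate gyrus granule cells held 4510, 4797 and 4624 CPM in the 3 SPF mice, above CA1 (2598 ± 103 CPM) and CA3 (2819 ± 64.1 CPM). In PFC upper-layer neurons held 2449, 2771 and 2659 CPM and layer 6 neurons 900.2 ± 4.41 CPM, and among interneurons the Vip subtype was high in both regions (3341 and 3518 CPM).

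Negr1 was highest in interneurons (1754 CPM) and excitatory neurons (1711 CPM) of SPF Hip, which overlapped, and in excitatory neurons of PFC (1437 CPM), above interneurons (1001 CPM) with no overlap. It was also high in astrocytes, at 1338 CPM in Hip and 967 CPM in PFC, and lowest in fibroblasts (407 and 400 CPM). Like Auts2 it was higher in granule cells (2685 ± 97.7 CPM) than in CA1 (1185 CPM) or CA3 (1092 CPM). Ank3 had its highest mean in oligodendrocytes, at 2348, 2721 and 2034 CPM in SPF Hip and 2222, 2253 and 2275 CPM in SPF PFC. Ankyrin-G is also found on the glial side of the paranodal junction. In PFC these values did not overlap those of interneurons or excitatory neurons (1542 and 1536 CPM), and in Hip they overlapped excitatory neurons (2214 CPM). Astrocytes and fibroblasts held the least Ank3 (417 and 391 CPM in Hip, 377 and 344 CPM in PFC).

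Cttnbp2 was highest in excitatory neurons in both regions, at 1448 ± 100 CPM in SPF Hip and 629 ± 58.0 CPM in SPF PFC, with no overlap with the next type. In Hip it was at 1650 CPM in CA1, 1672 CPM in granule cells and 897 CPM in CA3. Rabgap1l varied least by type. Choroid plexus (766 ± 168 CPM), excitatory neurons (659 CPM) and oligodendrocytes (651 CPM) overlapped at the top in Hip, and microglia (351 CPM) were last. In PFC it ran from 406 CPM in excitatory neurons to 209 CPM in astrocytes, although under the stricter gate fibroblasts came first. Itgb5 had another pattern, with microglia first by a wide margin (535 ± 124 CPM in SPF Hip, 643 ± 78.0 CPM in SPF PFC). Mural cells (153 and 269 CPM) and astrocytes (126 and 135 CPM) followed, and excitatory neurons held 2.82 and 4.09 CPM. Per kilobase of span in SPF excitatory neurons of Hip, Cttnbp2 (9.76 CPM per kb) stood above Ank3 (3.52), Auts2 (2.94) and Negr1 (2.27).

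**Figure D1:**
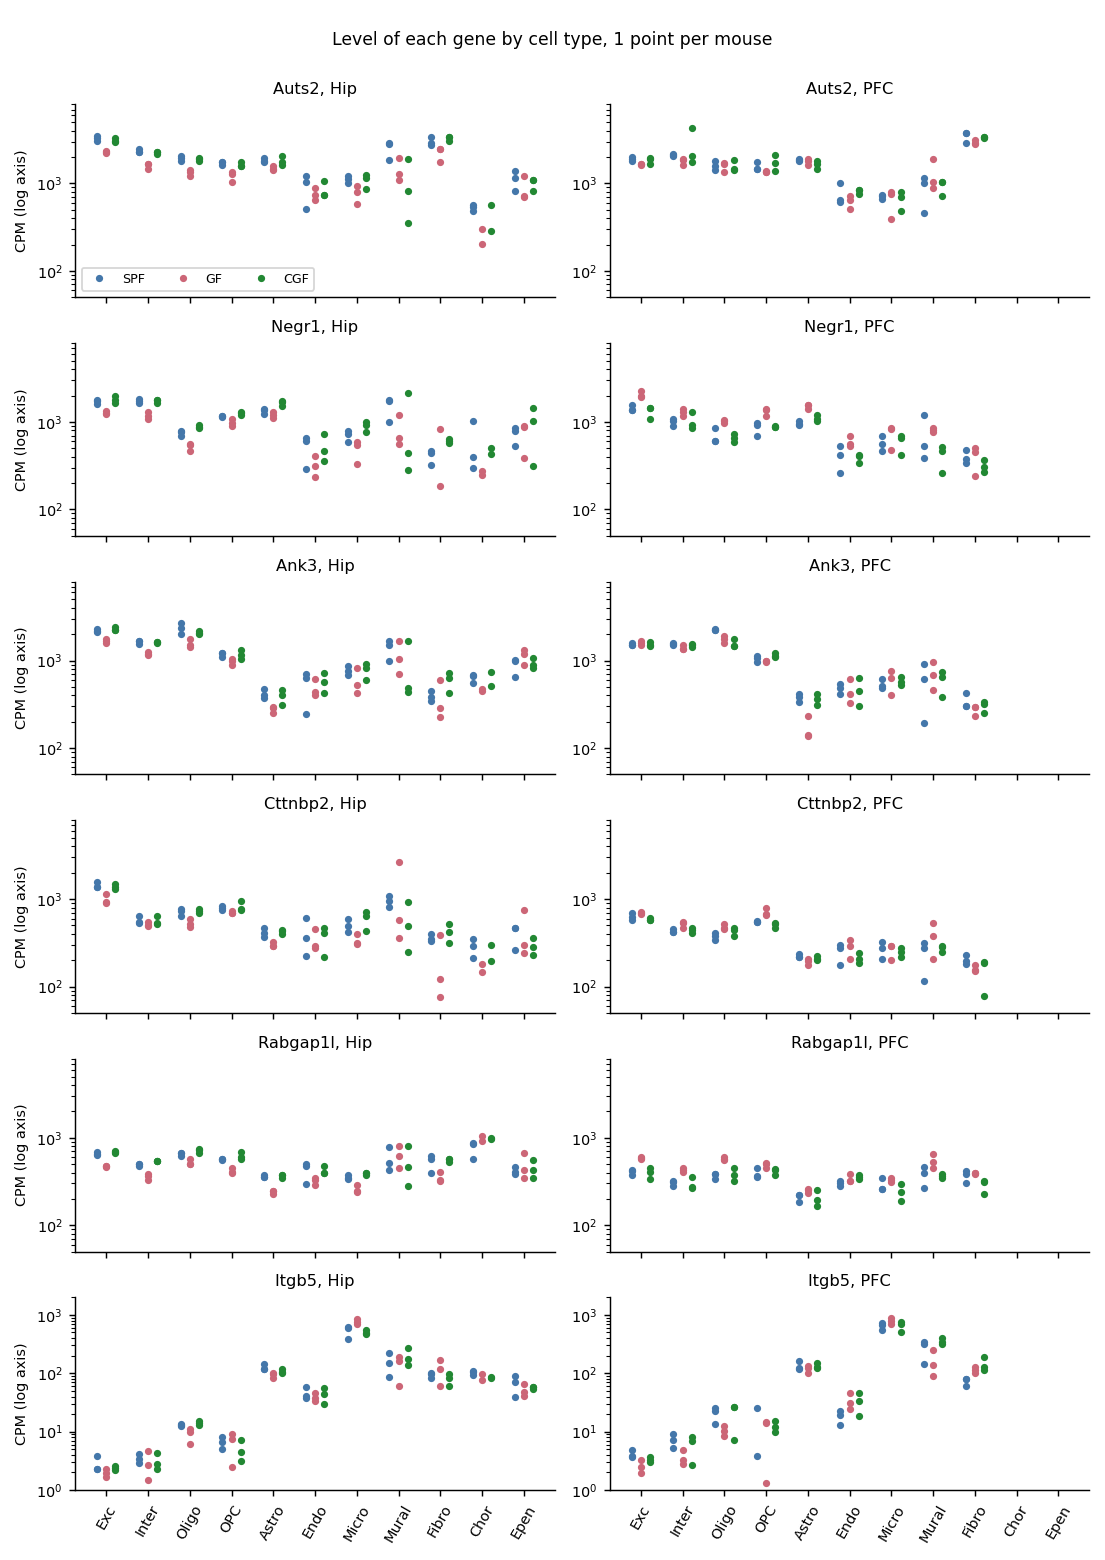
Level of each gene in CPM (log axis) by cell type, 1 point per mouse, in Hip and PFC, coloured by group; values of 0 or off the axis range are not drawn, and the marker gate gave no choroid plexus or ependymal nuclei in PFC. Itgb5 is highest in microglia (535 CPM in SPF Hip against 2.82 CPM in excitatory neurons). UMIs of the other 5 genes are seen in neurons and glia, and their microglial level did not stand above that of neuronal RNA. Among SPF astrocytes, oligodendrocytes and OPCs, 11 of 15 pairs in Hip and 6 of 15 in PFC did not stand above every neuronal gene.

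RNA released from neurons reaches droplets of other types, so levels outside neurons were set beside those of 10 neuronal genes, each as a percent of its level in excitatory neurons. In SPF microglia of Hip the neuronal genes lay at 29.3% to 96.1% (median 38.8%). Auts2 (34.1%), Negr1 (40.7%), Ank3 (34.8%), Cttnbp2 (34.8%) and Rabgap1l (53.3%) lay inside that range. PFC microglia gave a range of 30.1% to 82.9% with the same 5 genes inside it (35.0% to 71.1%), so their microglial level did not stand above the neuronal background in either region. In Hip astrocytes, oligodendrocytes and OPCs 11 of the 15 pairs of these 5 genes and types did not lie above every neuronal gene either, and in PFC 6 of 15. Among those that did, Negr1 in Hip astrocytes (78.2% against at most 62.7%), Ank3 in oligodendrocytes (107% in Hip and 146% in PFC against at most 75.1% and 73.8%), and Rabgap1l in oligodendrocytes (98.8% and 91.0%) lay above every neuronal gene, as did Auts2 in fibroblasts (93.3% and 187%, against at most 78.4% and 52.8%). Ank3 in astrocytes lay within the neuronal range (18.8% against 15.6% to 62.7% in Hip) and below its median (24.8%). Here and below, a pair not above every neuronal gene is called not above the neuronal background. Such a pair can still lie above the neuronal median. Auts2 did so in Hip astrocytes, oligodendrocytes and OPCs (56.7%, 59.3% and 52.7% against medians of 24.8%, 32.2% and 29.7%).

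Across 20 points of cell type and region, the genes whose level was most like each member were named by Pearson's r over 14598 genes. Each point is a mean over the libraries of SPF, GF and CGF mice together. The genes named are a description over points that share libraries and depth. Auts2 was closest to Ank2, Robo1 and Vezt (r = 0.88, 0.86 and 0.85) and Negr1 to Adam23, Astn1 and Adgrb3 (0.96, 0.95 and 0.94). Ank3 was closest to Pde4dip, 9530059O14Rik and Cntn3 (0.95, 0.94 and 0.92), and Cttnbp2 to Ryr3, Ppfia2 and Pak3 (0.95, 0.94 and 0.93). Rabgap1l was closest to Gm36975, Gm28376 and Prtg (0.95, 0.88 and 0.87) and Itgb5 to Zfp217, Kxd1 and Ccnd3 (0.93, 0.92 and 0.92). Among the 6 themselves Ank3 and Cttnbp2 were most alike (r = 0.83), and Itgb5 was negatively related to each of the other 5.

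The first comparison asks whether these genes differ in GF mice outside microglia. In the hippocampus the called values were all lower in GF than in SPF mice and came from neurons, oligodendrocytes, OPCs and astrocytes. Of the 35 gene and cell type pairs that passed the low-count filter (36 less Itgb5 in OPCs, the oligodendrocyte precursors), 21 were past an adjusted p of 0.05 (edgeR's quasi-likelihood test on UMIs summed per mouse, Benjamini-Hochberg over all genes of a type), all 21 lower in GF, with a median log2 fold change of -0.44 over the 35. Of the 11 calls of the 5 genes other than Itgb5 in astrocytes, oligodendrocytes and OPCs, 8 were in pairs whose SPF level did not stand above every neuronal gene in percent of the excitatory level, and the part of neuronal RNA in them was not tested. Over all genes in these types 31.9% of pairs were called, 14.0% as lower in GF. With each library's trend on gene span removed, 0 of the 35 pairs were called and several estimates turned positive, as described with gene span.

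Auts2 in excitatory neurons of Hip was at 3020, 3456 and 3283 CPM in SPF mice, 2378, 2201 and 2270 CPM in GF mice and 3081, 2986 and 3290 CPM in CGF mice. Every GF mouse lay below every SPF and CGF mouse, and the fold change between GF and SPF was -0.51 ± 0.07 (log2, SE; adjusted p = 0.00042, edgeR). Interneurons showed a change of the same size (-0.56 ± 0.09), with GF at 1666, 1463 and 1657 CPM and SPF at 2295, 2492 and 2277 CPM. Auts2 also fell in oligodendrocytes (-0.54 ± 0.11), OPCs (-0.48 ± 0.12) and astrocytes (-0.32 ± 0.11), at levels not above the neuronal background, and in endothelial cells the estimate was -0.29 ± 0.30 (adjusted p = 0.58). The astrocyte call was lost without CGF 17, GF 5, GF 6, GF 7, SPF 30 or SPF 31 (-0.28 to -0.36, adjusted p 0.053 to 0.11) and the OPC call without GF 6 (-0.38, adjusted p = 0.053). In granule cells Auts2 was at 3460, 3293 and 3524 CPM in GF mice, below all 3 SPF mice.

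Negr1 in excitatory neurons of Hip was at 1772, 1748 and 1614 CPM in SPF mice and 1279, 1340 and 1244 CPM in GF mice, with no overlap (-0.41 ± 0.08, adjusted p = 0.0023, edgeR). It fell in interneurons (-0.57 ± 0.09) and oligodendrocytes (-0.52 ± 0.11), where GF mice held 541, 467 and 558 CPM and SPF mice 790, 694 and 763 CPM, a level not above the neuronal background. The values for OPCs (-0.24 ± 0.11), astrocytes (-0.16 ± 0.11) and endothelial cells (-0.71 ± 0.34) did not pass the test (adjusted p = 0.14, 0.27 and 0.20, edgeR).

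Ank3 followed in excitatory neurons and oligodendrocytes, where its CPM was highest. In excitatory neurons of Hip it was at 2193, 2307 and 2141 CPM in SPF mice and 1676, 1600 and 1773 CPM in GF mice (-0.40 ± 0.06, adjusted p = 0.00094, edgeR). In oligodendrocytes it was at 2348, 2721 and 2034 CPM in SPF mice and 1748, 1445 and 1501 CPM in GF mice (-0.60 ± 0.13, adjusted p = 0.0029, edgeR). The groups did not overlap in either type. Interneurons gave -0.45 ± 0.08 and astrocytes -0.58 ± 0.14 (adjusted p = 0.0068), but the astrocyte call did not hold with cell types from Leiden clusters (-0.21, adjusted p = 0.38).

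Cttnbp2 fell in excitatory neurons of Hip, from 1393, 1563 and 1388 CPM in SPF mice to 1159, 933 and 909 CPM in GF mice (-0.53 ± 0.10, adjusted p = 0.0020, edgeR). It also fell in oligodendrocytes (-0.43 ± 0.12) and astrocytes (-0.47 ± 0.11), in both at a level not above the neuronal background. The oligodendrocyte call was lost without GF 6 (-0.38, adjusted p = 0.050) or SPF 30 (-0.38, adjusted p = 0.061), and the astrocyte call with Leiden cell types (-0.30, adjusted p = 0.082). Interneurons, which hold less Cttnbp2, gave -0.15 ± 0.11 (adjusted p = 0.29).

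Rabgap1l was close between the mice of a group. In excitatory neurons of Hip it was at 656, 687 and 634 CPM in SPF mice, 480, 468 and 477 CPM in GF mice and 699, 682 and 670 CPM in CGF mice (GF against SPF -0.47 ± 0.05, adjusted p = 0.00018, edgeR). GF stood below both other groups without overlap. Astrocytes gave -0.61 ± 0.10, interneurons -0.44 ± 0.08, OPCs -0.44 ± 0.12 and oligodendrocytes -0.31 ± 0.11, all called, and of the 3 glial types the astrocytic level was the 1 not above the neuronal background. The OPC call was lost without GF 6 or SPF 30 (-0.42 and -0.44, adjusted p = 0.053 and 0.054), and the oligodendrocyte call without CGF 18, GF 6, GF 7, SPF 30 or SPF 31 (-0.28 to -0.31, adjusted p 0.050 to 0.12).

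Itgb5, so low in neurons that excitatory neurons held 2.34, 2.33 and 3.78 CPM in SPF and 1.70, 2.29 and 1.99 CPM in GF Hip, did not pass there although the 3 GF values all lay below the lowest SPF value (-0.50 ± 0.22, adjusted p = 0.083, edgeR). It fell in astrocytes, from 118, 141 and 117 CPM to 96.2, 81.9 and 103 CPM (-0.42 ± 0.13, adjusted p = 0.022), a call lost without GF 6 (-0.36, adjusted p = 0.080) or SPF 31 (-0.33, adjusted p = 0.091). By cell type, 5 of 6 genes were called in excitatory neurons, 4 of 6 in interneurons, 5 of 6 in oligodendrocytes, 2 of 5 in OPCs, 5 of 6 in astrocytes and 0 of 6 in endothelial cells (0 at an unadjusted p under 0.05). Over all genes tested the shares called were 46.6%, 37.4%, 32.3%, 19.7%, 32.2% and 7.38% in the same order. Endothelial sums rest on 1081 nuclei over the 9 mice.

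The same comparison in PFC gave calls in both directions. Of 34 pairs tested (Itgb5 did not pass the filter in OPCs and endothelial cells), 10 were called, 7 higher and 3 lower in GF, with a median of 0.09. The share called over all genes was larger, 47.8% (24.4% higher and 23.4% lower in GF). By type it was 63.1% in excitatory neurons, 51.6% in interneurons, 37.6% in oligodendrocytes, 32.6% in OPCs, 46.1% in astrocytes and 32.9% in endothelial cells, beside 29.4% for the 6 genes, with no test of that difference. Thinned to the lowest depth, 11 of 33 pairs were called, 8 higher and 3 lower, beside 44.6% of all pairs. With the trend on gene span removed 13 of the 34 were called, 5 higher and 8 lower, and with span and GC content 7, 3 higher and 4 lower, as described with gene span.

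Negr1 was higher in GF PFC. In excitatory neurons it was at 1931, 2233 and 2001 CPM in GF mice, 1376, 1389 and 1545 CPM in SPF mice and 1431, 1432 and 1088 CPM in CGF mice (GF against SPF 0.52 ± 0.13, adjusted p = 0.0037, edgeR). In astrocytes it was at 1392, 1577 and 1579 CPM in GF mice and 940, 936 and 1023 CPM in SPF mice (0.65 ± 0.13, adjusted p = 0.00029). All GF mice lay above all SPF mice in both types. OPCs gave 0.59 ± 0.16 and oligodendrocytes 0.56 ± 0.16, in both at a level not above the neuronal background. These 2 calls were lost without SPF 31 (0.45 and 0.46, adjusted p = 0.066 and 0.054, edgeR). With likely doublets removed the oligodendrocyte value was 0.06 (adjusted p = 0.81). Interneurons (0.36 ± 0.15) and endothelial cells (0.53 ± 0.21) did not pass (adjusted p = 0.061 and 0.057).

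Rabgap1l was also higher in GF PFC. Excitatory neurons held 583, 595 and 565 CPM in GF mice against 377, 416 and 425 CPM in SPF mice (0.52 ± 0.11, adjusted p = 0.0012, edgeR). Interneurons gave 0.49 ± 0.12 and oligodendrocytes 0.64 ± 0.15, where GF mice held 595, 551 and 578 CPM and SPF mice 384, 336 and 388 CPM. The groups did not overlap in excitatory neurons or oligodendrocytes. OPCs (0.33 ± 0.16), astrocytes (0.25 ± 0.15) and endothelial cells (0.18 ± 0.18) did not pass.

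Auts2, lower in GF Hip, was called in 0 of 6 types in PFC (0 at an unadjusted p under 0.05). In excitatory neurons of PFC it was at 1689, 1620 and 1658 CPM in GF mice and 1784, 1988 and 1890 CPM in SPF mice (-0.19 ± 0.10, adjusted p = 0.13, edgeR), with GF below SPF but close. Cttnbp2 was also called in 0 of 6 types (3 at an unadjusted p under 0.05), with 720, 700 and 682 CPM in GF and 570, 686 and 630 CPM in SPF excitatory neurons (0.16 ± 0.09, adjusted p = 0.17). Ank3 in excitatory neurons was at 1495, 1585 and 1684 CPM in GF and 1519, 1509 and 1581 CPM in SPF mice, overlapping (0.05 ± 0.10, adjusted p = 0.69).

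Ank3 was called lower in GF PFC in 2 types. In astrocytes it was at 139, 140 and 233 CPM in GF mice and 336, 382 and 411 CPM in SPF mice (-1.13 ± 0.18, adjusted p = 2.3e-05, edgeR), the largest fold change among the called values of either region. Neuronal RNA in these astrocytes moved with it: the 10 neuronal genes stood at a median of 26.9% of their excitatory level in SPF and 16.6% in GF astrocytes, with Ank3 at 24.5% and 10.8%. With Leiden cell types the value was -0.04 (adjusted p = 0.87). The part of neuronal RNA in this result was not tested. In oligodendrocytes Ank3 was at 1902, 1750 and 1601 CPM in GF and 2222, 2253 and 2275 CPM in SPF mice, and CGF mice (1481, 1742 and 1455 CPM) lay below SPF as well. The GF value (-0.36 ± 0.14, adjusted p = 0.048) was lost without any 1 of the GF or SPF mice (-0.30 to -0.42, adjusted p 0.056 to 0.17). Itgb5 was called lower in GF excitatory neurons (2.46, 1.94 and 3.31 CPM against 4.84, 3.65 and 3.79 CPM; -0.66 ± 0.22, adjusted p = 0.020), lost without GF 5, GF 6 or SPF 30 (-0.63, -0.49 and -0.54, adjusted p 0.055 to 0.082). The SPF level of Itgb5 in these neurons was 0.637% of that in microglia and 3.04% of that in astrocytes, and the part of RNA from those cells in the call was not tested.

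**Figure D2:**
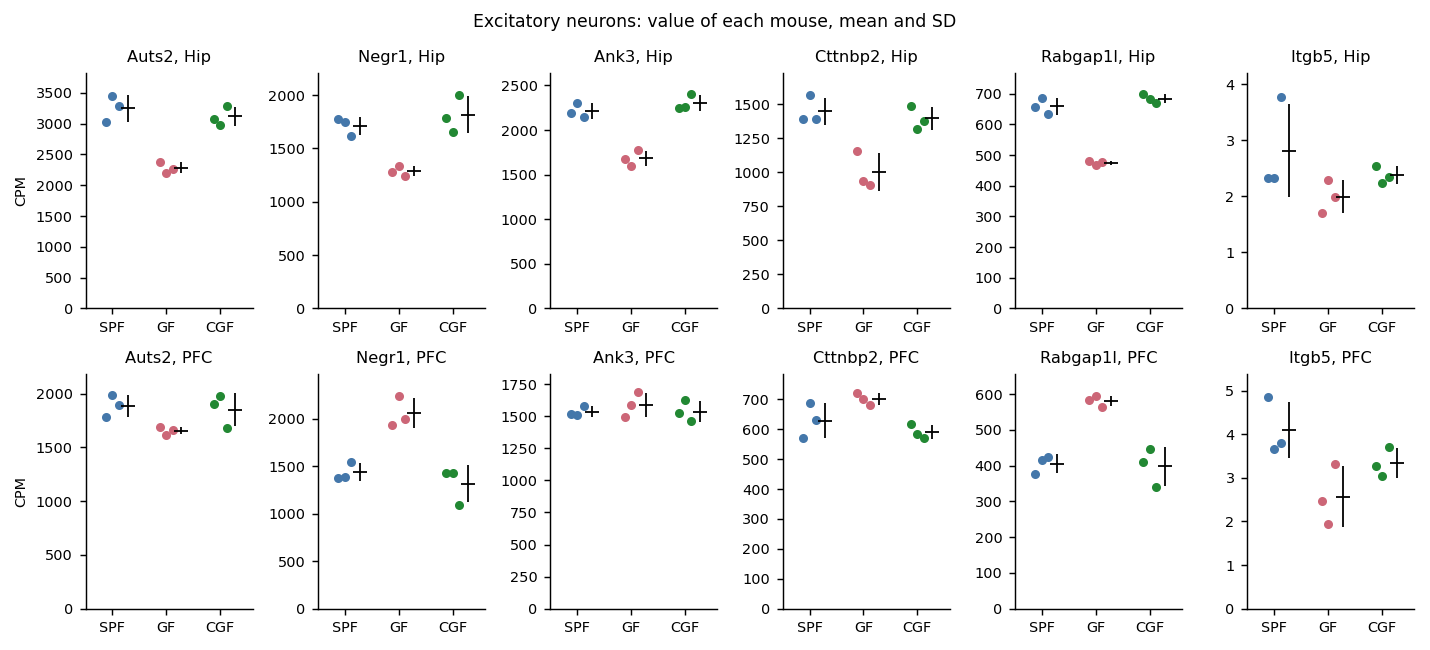
Level in excitatory neurons (CPM) of each gene, 1 point per mouse, by group (SPF, GF, CGF) and region, with the mean of each group. In Hip the 3 GF mice lie below SPF and CGF for Rabgap1l (468 to 480 CPM against 634 to 699 CPM) and in PFC above (565 to 595 CPM against 340 to 446 CPM).

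**Figure D3:**
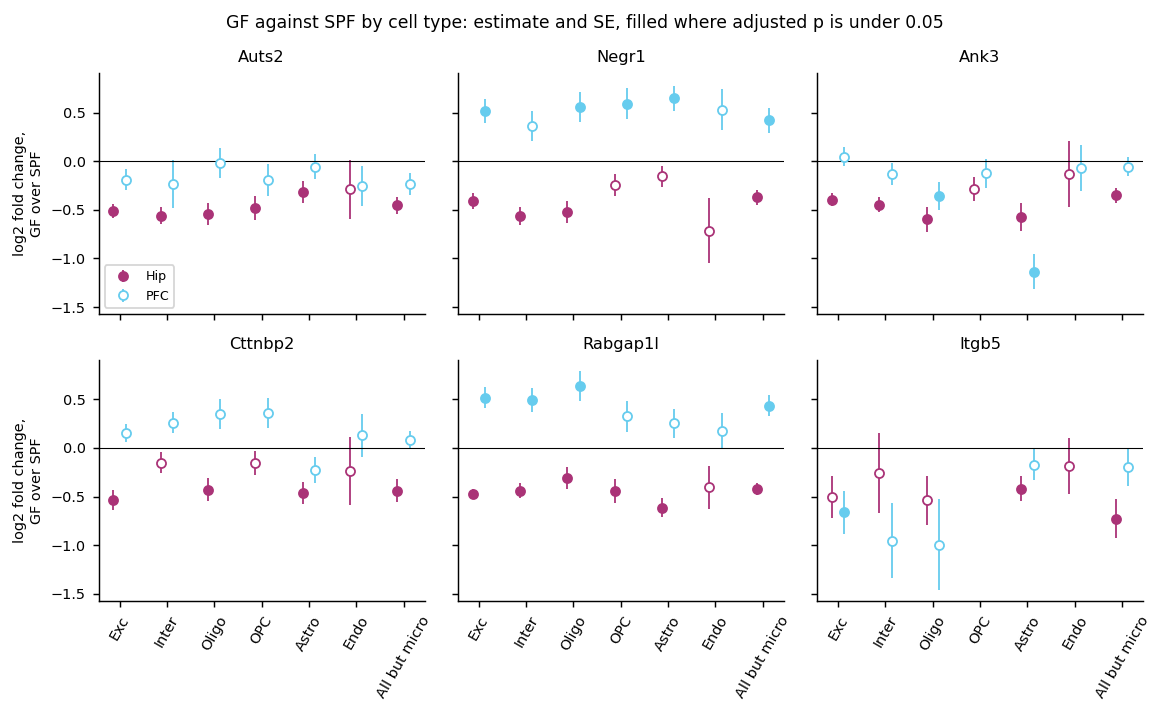
Log2 fold change of GF against SPF (points) with its SE (bars) for each gene and tested cell type in Hip and PFC; the last column sums all gated nuclei but microglia, and filled points are past an adjusted p of 0.05 in edgeR. All 35 Hip estimates by type lie below 0, and in PFC Negr1 and Rabgap1l lie above 0 in all 6 types.

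Colonization is addressed by the CGF mice. Their comparison with GF mice shares the 3 GF mice with that of GF and SPF. In Hip, 22 of 35 pairs were called between GF and CGF, all lower in GF (median -0.45), beside 32.9% of all pairs called and 14.9% called lower, and 17 of the 22 kept their call with any 1 mouse left out. With the trend on gene span removed, or on span and GC content, 0 and 0 of the 35 were called, beside 19.3% and 18.7% of all pairs. The largest were Negr1 in oligodendrocytes (-0.77 ± 0.11, adjusted p = 0.00019, edgeR), where CGF mice held 876, 864 and 924 CPM, and Rabgap1l in astrocytes (-0.61 ± 0.10). In CGF mice neither level stood above the neuronal background (48.9% and 53.4%, against at most 72.9% and 58.4%). The part of neuronal RNA in them was not tested. Negr1 in astrocytes was called here (-0.46 ± 0.11), with CGF mice at 1682, 1739 and 1519 CPM above GF mice at 1114, 1190 and 1296 CPM. Itgb5 was called in 0 of 5 types (1 at an unadjusted p under 0.05).

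In PFC, 11 of 34 pairs were called between GF and CGF beside 47.9% of all pairs. Higher in GF were Negr1 in 5 types (0.45 to 0.64, excitatory neurons 0.64 ± 0.13, adjusted p = 0.00088, edgeR) and Rabgap1l in excitatory neurons (0.54 ± 0.11), interneurons (0.53 ± 0.12) and oligodendrocytes (0.58 ± 0.15). The endothelial call of Negr1 was lost without CGF 17, CGF 19 or GF 7 (0.53 to 0.67, adjusted p 0.058 to 0.13), with Leiden types (0.34) and with likely doublets removed (0.39). Cttnbp2 was higher in excitatory neurons (0.25 ± 0.09) and OPCs (0.48 ± 0.15). The excitatory call was lost without any 1 of CGF 17, 18 or 19, GF 5, 6 or 7, or SPF 32 (0.22 to 0.28, adjusted p 0.051 to 0.095), and the OPC call without CGF 17 or GF 6 (0.43 and 0.41). Ank3 in astrocytes was lower (-1.07 ± 0.18, adjusted p = 3.7e-05) and with Leiden cell types it was 0.06. In CGF mice Negr1 in OPCs, oligodendrocytes and endothelial cells was not above the neuronal background (66.7%, 50.0% and 29.6%, against at most 82.3%, 71.8% and 47.4%). Neither was Ank3 in astrocytes (23.6% against at most 51.6%). The part of neuronal RNA in these calls was not tested. Without CGF 17, whose interneurons stood apart, 9 pairs were called, beside 42.0% of all pairs. With the span trend removed 16 were called, 9 higher and 7 lower, beside 48.4% of all pairs. With span and GC content 7 were called, 5 higher and 2 lower, beside 47.0% of all pairs.

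Between CGF and SPF mice, both of which carry microbes, edgeR called 0 of 35 pairs in Hip (estimates -0.25 to 0.30, SE up to 0.40, 2 at an unadjusted p under 0.05) and 0 of 34 in PFC (-0.53 to 0.36, SE up to 0.53, 1 at an unadjusted p under 0.05). DESeq2 called 0 and 1, the latter being Ank3 in PFC oligodendrocytes (-0.53, adjusted p = 0.035). Few genes of any kind were called here, 0.233% of pairs in Hip and 0.175% in PFC. With 1 mouse left out these shares were 0.0665% (without CGF 17) to 0.172% (without SPF 32) in Hip, and 0.0726% (without SPF 30) to 1.07% (without CGF 18) in PFC. A missed threshold does not show that CGF and SPF levels are alike. In excitatory neurons of Hip the CGF values of Auts2, Negr1, Ank3 and Rabgap1l all lay above every GF value, with CGF at 1787, 1658 and 2004 CPM for Negr1 and 2252, 2253 and 2401 CPM for Ank3.

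Whether the GF against SPF change depended on the region was tested over the 18 libraries by an interaction (the change in Hip minus that in PFC). Of 36 pairs, 17 were called, all below 0, with a median of -0.44. Over all genes 30.6% of pairs were called, 16.7% below 0. With the trend on gene span removed 7 pairs were called, 5 below 0 and 2 above, beside 27.7% of all pairs, and 5 of the 17 kept both call and direction. With GC content as well 3 were called, 2 below 0 and 1 above, beside 25.6% of all pairs. Negr1 in astrocytes (-0.44) was the 1 of the 17 that kept both. Rabgap1l and Negr1 accounted for 10 of the 17. Of these, Negr1 in oligodendrocytes and OPCs was not above the neuronal background in SPF mice of either region. Rabgap1l in astrocytes was not above it in Hip. Rabgap1l in excitatory neurons gave -1.05 ± 0.12 (adjusted p = 1.0e-06, edgeR) and Negr1 -0.98 ± 0.15 (adjusted p = 2.3e-05), both from a fall in Hip and a rise in PFC. All genes in excitatory neurons had a median of -0.12, and relative to it these values were -0.92 and -0.86. Cttnbp2 in excitatory neurons gave -0.75 ± 0.14, Ank3 -0.50 ± 0.10 and Auts2 -0.38 ± 0.11, the last lost without GF 5 (-0.34, adjusted p = 0.055). Without the span trend Ank3 (0.19) and Auts2 (0.48, adjusted p = 0.0053) in excitatory neurons turned positive. Itgb5 was called in 0 of 6 types (0 at an unadjusted p under 0.05). With the mouse as a block, 16 were called, 15 below 0 and 1 above: Ank3 (-0.31, adjusted p = 0.094) and Cttnbp2 (-0.40, adjusted p = 0.050) in interneurons were lost and Ank3 in astrocytes was gained (0.57, adjusted p = 0.014).

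GF libraries had the most similar depth in both regions, so Hip and PFC were compared within GF mice. Here 6 of 36 pairs were called, 4 higher and 2 lower in Hip, beside 11.6% of all pairs (6.19% without GF 6 and 7.33% without GF 7). With the span trend removed, or span and GC content, 9 and 8 were called, beside 10.8% and 10.8% of all pairs. All 6 kept their call and direction in both. Auts2 in excitatory neurons was at 2393, 2223 and 2308 CPM in Hip and 1585, 1543 and 1576 CPM in PFC on a common scale (0.56 ± 0.08, adjusted p = 3.2e-05, edgeR). Cttnbp2 in excitatory neurons was at 1167, 943 and 924 CPM in Hip and 676, 667 and 648 CPM in PFC (0.61 ± 0.10, adjusted p = 0.00011), and it was higher in Hip astrocytes too (0.67 ± 0.11). The regions did not overlap in these. Negr1 went the other way, at 1287, 1354 and 1265 CPM in Hip and 1812, 2128 and 1902 CPM in PFC excitatory neurons (-0.58 ± 0.10) and at 544, 466 and 560 CPM against 951, 1024 and 1008 CPM in oligodendrocytes (-0.93 ± 0.14, adjusted p = 4e-05). Ank3 in astrocytes (0.72 ± 0.18) was lost without GF 5 or GF 6 (0.66 and 0.55, adjusted p = 0.080 and 0.22, edgeR) and with Leiden types (0.10, adjusted p = 0.81). In GF mice none of these glial levels stood above the neuronal background in Hip or PFC. Cttnbp2 in astrocytes lay at 30.2% and 27.5% of its excitatory level (neuronal genes at most 61.1% and 51.6%). Ank3 there lay at 16.6% and 10.8%. Negr1 in oligodendrocytes lay at 40.5% and 49.5% (at most 67.4% and 72.9%). The part of neuronal RNA in these glial calls was not tested. Excitatory subtypes differ between the regions and in their level of these genes. Subtype makeup and region therefore cannot be told apart in the excitatory values.

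UMIs were also summed over the gated nuclei of a library. Microglia, in which the genes were chosen, gave at most 1.01% of the UMIs of the other 5 genes in any library but 18.2% to 61.4% of those of Itgb5, so the tests given here leave microglia out of the sum, a choice made after the data were seen. In such sums, fewer cells of a type and less RNA per cell cannot be told apart. All 6 genes were called lower in GF than in SPF Hip (-0.35 to -0.73; 45.0% of all genes called), with Rabgap1l at 477, 446 and 467 CPM in GF and 622, 645 and 596 CPM in SPF mice. Cttnbp2 (-0.44) lost its call without GF 7 or SPF 31 (-0.38 each, adjusted p = 0.055 and 0.052, edgeR). In PFC, 2 of 6 were called, both higher in GF (63.0% of all genes called): Negr1 (0.42 ± 0.13), a call lost without GF 6 (0.33, adjusted p = 0.071, edgeR), and Rabgap1l (0.43 ± 0.11). Auts2 (-0.23 ± 0.12, adjusted p = 0.098) passed only without CGF 19 (-0.24, adjusted p = 0.032). With the trend on gene span removed from these sums 0 of 6 were called in Hip, and with span and GC content 1, Itgb5 (-0.51, adjusted p = 0.039). In PFC the span fit called 3, Rabgap1l (0.26) as higher and Auts2 (-0.57) and Ank3 (-0.26) as lower, and the fit with GC content called 1, Ank3 (-0.29). With microglia kept in the sum the calls of the other 5 genes were the same (45.0% and 63.2% of all genes called).

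For Itgb5 the sum depended on whether microglia were in it. Without them it was at 5.08, 7.57 and 7.93 CPM in GF and 8.86, 11.3 and 13.9 CPM in SPF Hip, where the groups did not overlap (-0.73 ± 0.20, adjusted p = 0.015, edgeR). In PFC it was at 8.54, 6.15 and 9.30 CPM in GF and 10.9, 7.53 and 9.12 CPM in SPF mice, which overlapped (-0.19 ± 0.19, adjusted p = 0.40, edgeR). With microglia kept, and so with no test, its PFC level was 17.3, 15.7 and 19.3 CPM in GF and 13.9, 9.70 and 13.4 CPM in SPF mice, so every GF mouse lay above every SPF mouse. Microglia made up 4.43% to 4.85% of gated nuclei in GF PFC and 2.15% to 3.19% in SPF PFC, and they gave 51.5% to 61.4% of Itgb5 UMIs in GF and 22.0% to 32.3% in SPF mice. In Hip their share of nuclei was 2.74% to 3.29% in GF and 3.43% to 5.03% in SPF mice. Hip astrocytes gave 29.6% of all Itgb5 UMIs, the most after microglia (40.4%). Astrocytes made up 6.76% to 9.21% of gated nuclei in GF and 9.59% to 11.4% in SPF Hip. The part of this in the sum without microglia was not tested.

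Over the same sums without microglia, the GF against SPF change differed between regions for 4 of 6 genes (51.1% of all genes called). These were Negr1 (-0.84 ± 0.14), Rabgap1l (-0.91 ± 0.12), Cttnbp2 (-0.57 ± 0.15; adjusted p = 0.0048, edgeR) and Ank3 (-0.34 ± 0.11). Cttnbp2 was lost without SPF 30 (-0.44), and Ank3 without CGF 17, GF 6, SPF 30 or SPF 31 (-0.24 to -0.28). Itgb5 (-0.58 ± 0.29, adjusted p = 0.11) passed only without GF 6 or SPF 30 (-0.81 and -0.79) in the fits with a mouse left out. With the span trend removed 3 were called, Ank3 (0.28) and Auts2 (0.51) above 0 and Rabgap1l (-0.30) below, and with span and GC content 2, Ank3 (0.31) and Itgb5 (-0.87). Between the regions of GF mice, 3 of 6 were called (26.8% of all genes), with Auts2 (0.43 ± 0.10) and Cttnbp2 (0.57 ± 0.11) higher in Hip and Negr1 (-0.53 ± 0.10) lower. With the span trend removed, or span and GC content, Ank3 was called as well (0.33 and 0.31, adjusted p = 0.0018 and 0.0029, edgeR), against 0.15 (adjusted p = 0.18) with the trend kept.

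In microglia themselves, where the genes were chosen, Itgb5 was at 756, 833 and 705 CPM in GF Hip, 623, 588 and 393 CPM in SPF Hip and 477, 542 and 487 CPM in CGF Hip. GF stood above both other groups. Auts2 was at 796, 587 and 947 CPM in GF, 1114, 1008 and 1204 CPM in SPF and 1246, 855 and 1168 CPM in CGF microglia of Hip, and Rabgap1l at 242, 249 and 286, at 344, 340 and 370 and at 398, 376 and 398 CPM. GF lay below SPF in both. Negr1 (330 to 595 CPM in GF and 587 to 782 CPM in SPF), Ank3 (423 to 817 and 679 to 869 CPM) and Cttnbp2 (310 to 399 and 423 to 595 CPM) were on the same side, with overlap for Negr1 and Ank3. In PFC microglia Itgb5 was at 793, 868 and 691 CPM in GF and 659, 559 and 712 CPM in SPF mice, which overlapped, as did Auts2 (397, 757 and 801 against 713, 745 and 658 CPM) and Negr1 (484, 842 and 854 against 691, 466 and 564 CPM). Leiden clustering split these PFC nuclei by group. Of 1109 gated microglia of GF mice, 1047 lay in clusters named for border macrophage markers and 17 in clusters named microglia, against 1 and 469 of 485 in SPF mice and 0 and 438 of 458 in CGF mice. The part of this in the PFC microglial values was not tested.

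Gene span moved with the Hip result in every type. The median log2 fold change of GF against SPF in excitatory neurons of Hip was 0.58 over 4827 genes of up to 10 kb, 0.14 at 10 to 30 kb, -0.16 at 30 to 100 kb, -0.32 at 100 to 300 kb and -0.47 over 595 genes above 300 kb, of which 69.1% were called lower. Auts2 (-0.51), Negr1 (-0.41), Ank3 (-0.40) and Rabgap1l (-0.47) lie near the median of the last class. Medians above 300 kb were -0.45 in interneurons, -0.45 in oligodendrocytes, -0.33 in OPCs, -0.45 in astrocytes and -0.29 in endothelial cells. In excitatory neurons of PFC the medians were 0.02, -0.03, 0.00, 0.03 and 0.18, and genes above 300 kb were called higher in 37.5% and lower in 16.3% of cases. There Negr1 and Rabgap1l (0.52 each) stood above the class median and Auts2 (-0.19) below it.

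**Figure D4:**
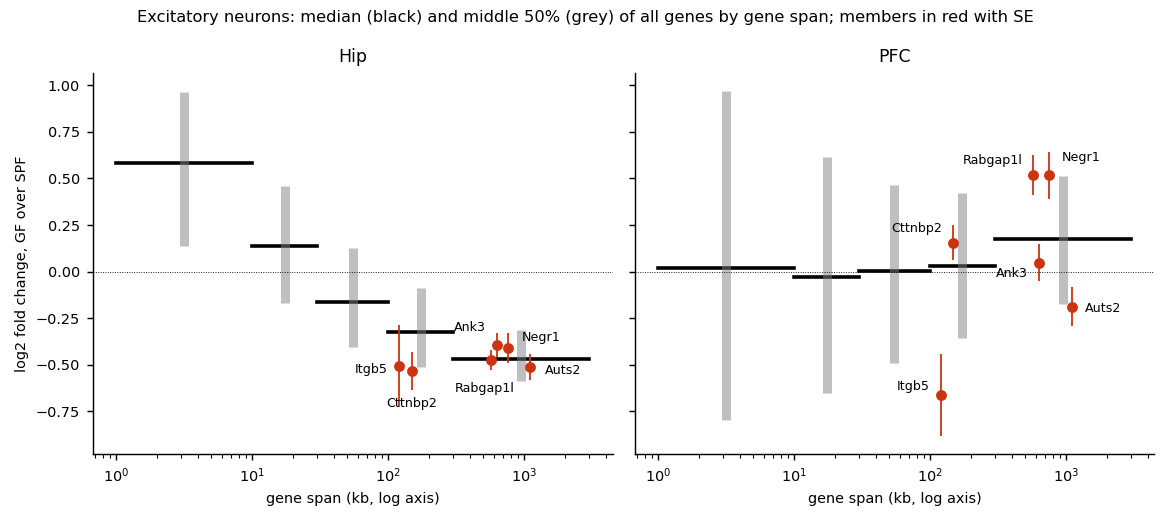
Log2 fold change of GF against SPF in excitatory neurons by gene span class (kb), with the median (black) and middle 50% (grey) of all genes and the members in red with SE, in Hip and PFC. The Hip median falls from 0.58 to -0.47 across the classes with the 4 members above 300 kb close to it, while in PFC it stays between -0.03 and 0.18.

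With each library's trend on span removed, 0 of the 35 Hip pairs were called between GF and SPF, and 0 with the trend on span and GC content removed, while over all genes and types 18.1% and 18.3% of pairs were still called. In excitatory neurons Negr1 went from -0.41 to 0.0012, Ank3 from -0.40 to 0.0028 and Rabgap1l from -0.47 to -0.08. In PFC 13 of 34 pairs were called without the span trend, 5 higher and 8 lower, beside 48.1% of all pairs. Among them Auts2 became lower in excitatory neurons (-0.57 ± 0.09, adjusted p = 0.00014, edgeR) and Negr1 in astrocytes stayed higher (0.81 ± 0.12, adjusted p = 7.4e-06). With GC content as well, 7 were called, 3 higher and 4 lower, beside 46.5% of all pairs, and the PFC values of Rabgap1l in excitatory neurons (0.08) and Negr1 (0.17) no longer passed (adjusted p = 0.37 and 0.073), whereas Negr1 in astrocytes did (0.69, adjusted p = 6.2e-05).

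The same pattern was seen in the share of a library's UMIs that fell on genes above 300 kb. In excitatory neurons of Hip, GF mice had 31.5% to 33.4%, SPF mice 40.1% to 41.8% and CGF mice 41.6% to 43.3%. In those of PFC, GF mice had 35.8% to 36.9%, SPF mice 29.2% to 31.2% and CGF mice 27.0% to 32.4%. GF mice thus stood below in Hip and above in PFC, without overlap. Among Hip microglia, GF mice had 13.5% to 17.4%, SPF mice 20.5% to 21.9% and CGF mice 21.4% to 25.8%. Genes of up to 10 kb took 13.8% to 15.2% of excitatory UMIs in GF Hip and 6.17% to 7.32% in SPF Hip. The part of this shift in the members' change was not tested beyond the fits without the trend.

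**Figure D5:**
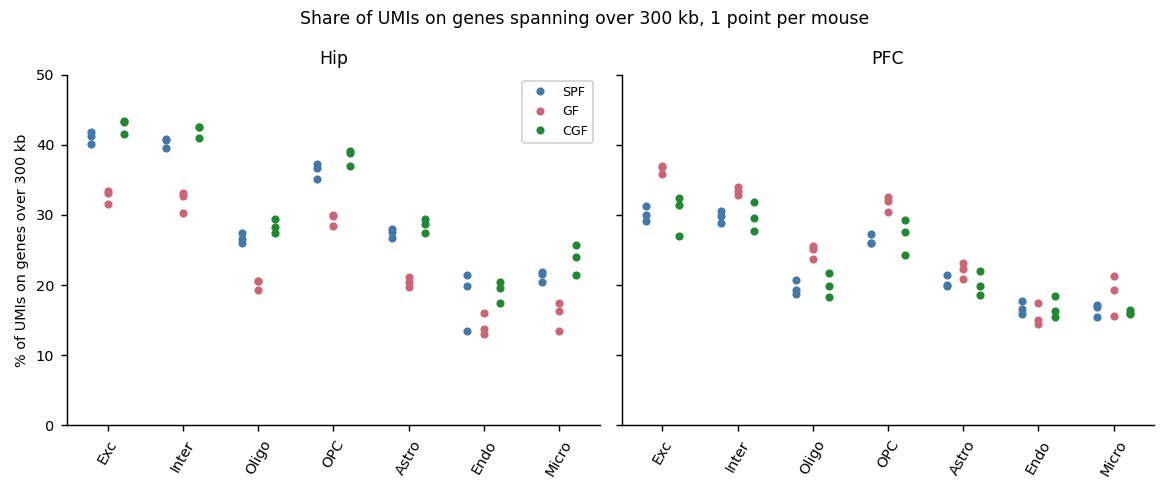
Percent of UMIs on genes spanning more than 300 kb by cell type, 1 point per mouse, in Hip and PFC, coloured by group. In excitatory neurons GF mice lie at 31.5% to 33.4% in Hip, below SPF (40.1% to 41.8%), and at 35.8% to 36.9% in PFC, above SPF (29.2% to 31.2%).

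Relatives and partners of the 6 genes are given as counts of gene and type pairs called between GF and SPF and as the median log2 fold change of each list, beside a median of 0.01 over all genes in both regions. Of all pairs, 17.9% were called higher and 14.0% lower in GF Hip, and 24.4% higher and 23.4% lower in GF PFC. In the IgLON family of Negr1, 13 of 23 pairs were called lower and 0 higher in GF Hip (median -0.51), and 7 higher and 1 lower of 21 in PFC (median 0.16). With the span trend removed, 3 were lower in Hip, and in PFC 2 were higher and 4 lower. Lsamp, an IgLON adhesion molecule, gave -0.70 ± 0.08 in Hip and 0.71 ± 0.16 in PFC excitatory neurons (adjusted p = 0.00016 and 0.0021, edgeR). Opcml gave -0.68 ± 0.09 and 0.19 ± 0.14 and Ntm -0.31 ± 0.17 and -0.06 ± 0.12, of which only the Hip value of Opcml passed. Of the RABGAP1L relatives and Rab substrates 18 of 47 pairs were lower and 0 higher in Hip (median -0.37), and 9 of 40 were higher and 1 lower in PFC (median 0.22), with Rabgap1 at -0.29 ± 0.05 and 0.39 ± 0.08 in excitatory neurons, both called. Without the span trend the counts in Hip were 1 higher and 5 lower.

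Ankyrins and axon initial segment genes were lower in 38 of 77 pairs in Hip with 0 higher (median -0.36), and in PFC 10 were higher and 25 lower of 75 (median -0.17). With the span trend removed 16 of the 77 Hip pairs were called, all lower, beside 18.1% of all pairs. Ank2, which encodes ankyrin-B, gave -0.48 ± 0.08 and 0.26 ± 0.10 (both called) and Ank1 -0.56 ± 0.15 (called) and -0.19 ± 0.11. The other lists are given in turn. AUTS2 and Polycomb repressive complex 1 genes had 8 higher and 11 lower of 66 in Hip and 15 and 4 of 62 in PFC (medians -0.02 and 0.13), with Fbrsl1, a relative of Auts2, at -0.17 ± 0.05 (called) and 0.15 ± 0.08. CTTNBP2 partners of the STRIPAK complex had 5 higher and 9 lower of 58 and 14 and 12 of 56 (medians 0.00 and 0.07), with Cttnbp2nl at -0.44 ± 0.09 (called) and 0.08 ± 0.10. Integrin beta subunits, alpha v and their ligands had 2 higher and 7 lower of 42 and 17 and 2 of 36 (medians -0.21 and 0.49). Itgav, the partner of Itgb5, was at -0.53 ± 0.17 in Hip and 0.68 ± 0.09 in PFC excitatory neurons, both called, and at 1.42 ± 0.16 in PFC astrocytes (adjusted p = 4.3e-07). The 10 neuronal genes had 0 higher and 23 lower of 60 in Hip and 14 and 22 of 60 in PFC (medians -0.32 and -0.14), and 3 higher and 4 lower in Hip without the span trend.

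The 4 other genes of the study's depression list, picked on these samples in the same way, had 4 higher and 10 lower of 24 pairs in Hip and 15 higher and 2 lower of 24 in PFC (medians -0.44 and 0.86), so their counts are no independent evidence. Fkbp5, a glucocorticoid-induced co-chaperone, was at -0.02 ± 0.17 in Hip and 1.54 ± 0.13 in PFC excitatory neurons and rose in astrocytes of both regions (1.16 ± 0.24 and 2.29 ± 0.26). Nrg3, a ligand of ErbB4, gave -0.61 ± 0.07 and 1.03 ± 0.17, both called, and its receptor gene Erbb4 gave -1.13 ± 0.28 (called) and 0.10 ± 0.19. The SPF level of Erbb4 in Hip excitatory neurons was 1.23% of that in interneurons. Slc1a3, the glutamate transporter GLAST, was at -0.17 ± 0.12 and -0.06 ± 0.14 in astrocytes, neither called. In excitatory neurons it gave -0.51 ± 0.17 and -0.77 ± 0.15, both called, at an SPF level of 1.76% and 1.21% of that in astrocytes. The part of RNA from other cells in these low values was not tested. Between CGF and SPF, edgeR called 0 pairs in each of these lists, with 1 to 12 per list and region at an unadjusted p under 0.05.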

How the data were processed

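The authors trimmed reads with fastp and aligned them to mm10 (Ensembl 92) using Cell Ranger (3.1.0 per the file headers), and deposited per library the raw UMI counts per gene and nucleus, without normalization. The counting of intronic reads is not given in the sources used here.

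Nuclei were kept at 200 genes or more and 10% mitochondrial UMIs or less. A nucleus was given a type by the posterior (at least 0.95, at least 3 marker UMIs) of its UMIs over 95 marker genes of 12 types, each capped at 5 UMIs. These settings were chosen on marker genes alone after the files were seen, and border macrophages gave too few nuclei in this gate (minimum 50), while 2 PFC Leiden clusters of 1011 and 116 nuclei took that name. Leiden clusters gave the same type for 91.9% (Hip) and 91.7% (PFC) of gated nuclei, for 83.2% to 98.3% in the 6 tested types and for 93.1% (Hip) and 45.0% (PFC) of microglia. Likely doublets (6.30% and 6.07%) were removed only in an alternative. A type with under 10 nuclei in a library gave no value for it.

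Counts were summed per mouse and type and fitted for the 9 mice of a region with edgeR 4.0.16 (filterByExpr, TMM, glmQLFit and glmQLFTest, in R 4.3.3 with limma 3.58.1), with Benjamini-Hochberg adjustment over all genes of a fit and a threshold of 0.05. Standard errors (SE) were taken as the size of the log2 fold change over the root of F. All 18 libraries entered the tests between regions. The labels give both regions of an animal 1 number. Deviations from the group means correlated between the regions of a mouse by 0.192 to 0.457 over 9282 genes, and by at most -0.0037 with other mice, so the numbers pair the samples, and the fit with the mouse as a block is an alternative. Gene spans came from GENCODE vM21 and matched 30766 of 30905 genes.

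The 6 members and the companion lists were chosen with earlier results of these data known. Named besides the members were their nearest relatives or partners, the 4 other genes of the study's list, and the 3 genes most like each member. The alternatives were DESeq2 1.42.0 as test or for size factors, no filter on low counts, counts thinned to the lowest depth, Leiden types, a stricter gate, likely doublets removed, the 20 most abundant genes left out, the trend on span or on span and GC content removed, only the 6 mice compared, and each mouse left out, and, added after seeing the data, sums without microglia (also with each mouse left out or the span trends removed). The code was tested on simulated data. Python 3.11.15 with numpy 2.4.6, pandas 2.3.3, scipy 1.17.1 and scikit-learn 1.9.0 was used.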

Additional observations from a re-analysis of the deposited data

Results flagged for a closer look

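The GF against SPF change differed between Hip and PFC, by the interaction test, in 17 of 36 pairs of gene and cell type. Each had a smaller (more negative) value in Hip. Over all genes 30.6% of pairs were called, 16.7% below 0. The values are log2 fold changes in Hip minus those in PFC. For Negr1 they were -0.98 in excitatory neurons, -0.93 in interneurons, -1.14 in oligodendrocytes, -0.81 in OPCs and -0.80 in astrocytes, and less the median of all genes in each type they were -0.86, -0.87, -0.998, -0.76 and -0.74. For Rabgap1l they were -1.05, -0.93, -1.01, -0.74 and -0.86 in the same order, and -0.92, -0.86, -0.87, -0.69 and -0.80 less the median. In SPF mice Negr1 in oligodendrocytes (43.8% in Hip and 47.7% in PFC) and OPCs (68.2% and 60.1%) was not above the neuronal background. Rabgap1l in astrocytes was not above it in Hip (55.4%). The part of neuronal RNA in these values was not tested.

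For Cttnbp2 the values were -0.75 in excitatory neurons, -0.41 in interneurons and -0.84 in oligodendrocytes (-0.62, -0.34 and -0.70 less the median). For Auts2 they were -0.38 in excitatory neurons and -0.59 in oligodendrocytes (-0.25 and -0.44), and for Ank3 -0.50 in excitatory neurons and -0.32 in interneurons (-0.38 and -0.25). In SPF mice Cttnbp2 in oligodendrocytes was not above the neuronal background in either region (49.3% and 60.0%). Auts2 in oligodendrocytes was not above it in Hip (59.3%). The calls of Ank3 and Cttnbp2 in interneurons, of Auts2 in both types and of Rabgap1l in OPCs were each lost with at least 1 mouse left out. The highest adjusted p in edgeR with a mouse left out was 0.16 for Ank3 and 0.17 for Cttnbp2 in interneurons. For Auts2 it was 0.055 in excitatory neurons and 0.16 in oligodendrocytes, and for Rabgap1l in OPCs 0.052. With the mouse as a block Ank3 (-0.31, adjusted p = 0.094) and Cttnbp2 (-0.40, adjusted p = 0.050) in interneurons were lost. With the trend on gene span removed 7 pairs were called, and with span and GC content 3, beside 27.7% and 25.6% of all pairs. In these fits 5 and 1 of the 17 kept call and direction. Ank3 (0.19) and Auts2 (0.48) in excitatory neurons turned positive without the span trend. With likely doublets removed Negr1 in oligodendrocytes was -0.59 (adjusted p = 0.060). GF libraries were deeper than SPF libraries in PFC and had fewer median UMIs per nucleus in Hip. Counts thinned to the lowest depth left 15 of 35 pairs called, beside 29.7% of all pairs. The part of depth beyond the thinned counts was not tested.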

How the results depend on the processing

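Under the alternatives, 5512 of 5934 single values of the members kept their side of the threshold and, where called in either fit, their direction, 260 lost and 112 gained a call, and 50 with a call in either fit turned. With Leiden types 12 values lost and 17 gained a call, and 1 turned. With likely doublets removed 10 lost and 9 gained a call. Only some of these are named in the text. Removing the trend on gene span, or on span and GC content, left 0 and 0 calls in Hip between GF and SPF, 0 and 0 between GF and CGF, and 0 and 0 over all gated nuclei (0 and 1 without microglia, where PFC had 3 and 1). Differences between regions then numbered 7 and 3, and with GC content PFC calls between GF and CGF numbered 7. DESeq2 made 1 call between CGF and SPF in PFC where edgeR made 0. With each mouse left out in turn, Hip calls numbered 15 to 21 for GF against SPF, 18 to 22 for GF against CGF and 0 to 0 for CGF against SPF, and PFC calls 7 to 13, 9 to 13 and 0 to 0. Differences between regions numbered 13 to 17, regional differences in GF mice 5 to 7, and calls over all gated nuclei but microglia 5 to 6 in Hip and 1 to 3 in PFC. With microglia kept the counts were 4 to 6 and 1 to 4, the lowest without SPF replicate 31, and they include Itgb5, for which that sum is no test. In all 9 leave-outs 15 of 21 Hip and 6 of 10 PFC calls of GF against SPF kept their call. With the mouse as a replicate block 16 differences between regions and 6 regional differences in GF mice were called. By cell type no other call than those given above changed. The block was not fitted to the sums without microglia. The type with the highest level was the same in 11 of 12 cases under the stricter gate and in 10 of 12 with Leiden types.

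Without microglia Itgb5 over all nuclei of PFC turned to -0.19. Other values that turned are given with the span trend removed and then, after a slash, with span and GC removed. Between GF and SPF in Hip they were 0.032/0.027 for Ank3 and 0.020/0.033 for Negr1 over all nuclei, 0.032/0.028 and 0.022/0.033 without microglia, 0.0028 for Ank3 (span) and 0.0012/0.015 for Negr1 in excitatory neurons, 0.15/0.14 for Auts2 in astrocytes and 0.097/0.099 for Rabgap1l in oligodendrocytes. In PFC, with span and GC, Ank3 in excitatory neurons was -0.21, and Auts2 and Itgb5 in astrocytes 0.55 and 0.40. Between GF and CGF in Hip, Ank3 was 0.035/0.022 in excitatory neurons, 0.077/0.065 in interneurons and 0.14/0.11 in oligodendrocytes. Auts2 was 0.25/0.14 in astrocytes, 0.097 in excitatory neurons, 0.059 in interneurons and 0.058 in OPCs (span), and 0.13/0.062 in oligodendrocytes. Negr1 was 0.041/0.086 in astrocytes, 0.0094/0.051 in excitatory neurons and 0.095/0.13 in OPCs, and Rabgap1l 0.044 in excitatory neurons (span and GC) and 0.098/0.18 in oligodendrocytes. In PFC, Auts2 in oligodendrocytes was -0.46 (span), and Ank3 in astrocytes was 0.059 with Leiden types. Differences between regions were 0.19/0.21 in excitatory neurons and 0.22/0.23 in interneurons for Ank3, 0.48/0.014 in excitatory neurons for Auts2, and 0.38 in oligodendrocytes for Auts2 (span), and over the sums without microglia 0.28/0.31 for Ank3 and 0.51 for Auts2 (span). With no call in either fit, Itgb5 in the PFC sum without microglia went from -0.19 to 0.38 (span and GC). The cause was not tested.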

Other observations

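Subtypes of neurons were described without a test. In SPF mice the Vip interneurons held more Ank3 (2102 ± 184 CPM in Hip and 2088 ± 264 CPM in PFC) than the Pvalb interneurons (1374 ± 131 and 1311 ± 20.2 CPM), without overlap. Sst interneurons held the most Negr1 of the 4 interneuron subtypes in PFC (1367 ± 137 CPM), overlapping Vip (1110 ± 249 CPM). CA3 neurons, low in Cttnbp2, held more Rabgap1l (812 ± 42.8 CPM) than CA1 (658 ± 25.6 CPM) or granule cells (564 ± 26.5 CPM). In granule cells of GF Hip, Negr1 was at 2238, 2250 and 2221 CPM, below SPF mice at 2622, 2798 and 2635 CPM.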
